A study of Homo sapiens with 8 samples.

Results

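Tight junctions seal the space between neighbouring epithelial cells and mark the border between their apical and basolateral surfaces. Claudins and occludin span the membrane and form the strands, the junctional adhesion molecule JAM-A (gene F11R) and the scaffold ZO-1 (gene TJP1) help to place them, and the surface protein EPCAM, the membrane-bound serine protease inhibitor HAI-1 (gene SPINT1) and the apical sorting protein MAL2 act at or near the same surfaces. Prostate luminal epithelium carries many of these proteins, and carcinoma cells that lose epithelial features often have less of them. The set described here holds 10 genes, CLDN1, CLDN3, CLDN4, CLDN7, OCLN, TJP1, F11R, MAL2, SPINT1 and EPCAM, chosen by gene symbol from a table of 60622 gene lines. The choice was made with earlier results of these data known. Counts of called genes, given beside the shares over all tested genes, are therefore a description and not a test of the set. All 10 passed the filter on low counts and were among the 21066 genes tested.

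Poly(A) RNA was sequenced from 2 established lines of human prostate cancer, after overexpression of the microRNA miR-375 and in controls. LNCaP responds to androgen and was derived from a lymph node metastasis. PC3 was derived from a bone metastasis and has little androgen receptor. The groups were LNCaP with miR-375 overexpressed, LNCaP control, PC3 with miR-375 overexpressed and PC3 control, with 2 libraries in each. All cells were grown in RPMI-1640 with antibiotics, LNCaP with 10% and PC3 with 20% fetal bovine serum, so cell line and serum share cannot be told apart. The sources used here do not give the means of raising miR-375, its duration, the treatment of the controls, or whether replicate libraries stem from separate cultures. The p-values therefore measure only the spread between replicate libraries, and that spread may be technical.

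Library totals ran from 33973861 to 41890528 counts. Marker genes matched the labelled lines: 8 luminal LNCaP markers summed to between 4588 and 5986 CPM (counts divided by the scaled library size) in the LNCaP libraries and between 122 and 147 CPM in the PC3 libraries. Leukocyte markers summed to at most 0.805 CPM in any library. The miR-375 gene, whose short product a poly(A) library is not made to capture, had 0 counts in all 8 libraries, which allows at most between 0.0716 and 0.0883 CPM, so the table does not check the overexpression itself.

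A microRNA pairs with its targets mainly through the seed, bases 2 to 8 of the mature strand, and the 3′ untranslated regions (UTRs) of the 10 genes were searched for matches to it. The mature strand is shown first (RefSeq, GRCh38.p14, chr2:219001648-219001669, minus strand), with the seed in capitals. The sites of CLDN1 and OCLN follow because both genes rose with miR-375 in PC3, as described below, and hold seed matches. In LNCaP, as also described below, CLDN1 fell on few counts, not in every setting, and OCLN did not pass the test. The sites are given as transcript strand with the match in capitals, from the GENCODE v29 transcripts of GRCh38. The CLDN1 sites lie on the minus strand of chromosome 3 at chr3:190307232-190307253, chr3:190306987-190307008, chr3:190306919-190306940 and chr3:190306851-190306872, and the OCLN site lies on the plus strand at chr5:69558063-69558084.
hsa-miR-375-3p: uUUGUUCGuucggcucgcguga
CLDN1 site at UTR base 1039: gtggtctgtttgtctGAACAAA
CLDN1 site at UTR base 1284: actgaagaagtcactGAACAAA
CLDN1 site at UTR base 1352: cagtctatttccactGAACAAA
CLDN1 site at UTR base 1420: cagtctatttccactGAACAAA
OCLN site at UTR base 4407: tctaaaatctatacaGAACAAA

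The motifs searched on the transcript strand were CGAACAAA (8mer), CGAACAA (7mer-m8), GAACAAA (7mer-A1) and GAACAA (6mer), each match being counted once under its longest form. The 7mer-A1 form matches bases 2 to 7 of the mature strand, with an A opposite base 1, and does not match base 8. None of the 10 genes had an 8mer or a 7mer-m8. CLDN1 had 4 matches of the 7mer-A1 form in a UTR of 2576 bases, and the last 2 of them share all 22 bases printed. OCLN had 1 such match in 4433 bases, near the end of the UTR. MAL2, which fell with miR-375 in both lines as described below, had 1 match of that form and a 6mer in 2185 bases. The sequence of the MAL2 site is not reported here. F11R had a 6mer alone in 3660 bases, and CLDN3, CLDN4, CLDN7, TJP1, SPINT1 and EPCAM had no match in the transcript searched. Thus 3 of the 10 genes held at least 1 match of 7 or 8 bases, against 14.7% of 14970 tested genes with a UTR sequence, whose median length was 1026 bases. CLDN1 was 1 of 32 of those genes with 4 or more such matches. A match is a sequence description and not a measured site.

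The promoter windows of OCLN and TJP1, 250 bases before to 50 after the start in RefSeq (GRCh38.p14), are printed because OCLN rose and TJP1 fell with miR-375 in PC3 while both windows hold the same hexamer. The hexamer is CACCTG on either strand (CAGGTG when read on the other), a form of the E-box CANNTG and part of it, and is in capitals. The windows are chr5:69492297-69492596 on the plus strand for OCLN and chr15:29969000-29969299 on the minus strand for TJP1.
OCLN promoter: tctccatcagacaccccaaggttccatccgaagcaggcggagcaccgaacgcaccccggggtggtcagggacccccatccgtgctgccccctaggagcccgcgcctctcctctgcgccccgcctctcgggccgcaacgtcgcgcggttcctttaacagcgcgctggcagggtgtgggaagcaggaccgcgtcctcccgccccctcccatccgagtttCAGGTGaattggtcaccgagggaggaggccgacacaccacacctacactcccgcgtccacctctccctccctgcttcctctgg
TJP1 promoter: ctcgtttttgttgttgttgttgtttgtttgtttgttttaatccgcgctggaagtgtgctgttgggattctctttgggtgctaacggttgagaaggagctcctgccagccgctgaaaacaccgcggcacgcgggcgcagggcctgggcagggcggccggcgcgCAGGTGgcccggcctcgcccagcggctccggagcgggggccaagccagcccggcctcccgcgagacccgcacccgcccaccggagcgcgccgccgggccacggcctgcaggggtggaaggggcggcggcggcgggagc

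The hexamer starts 33 bases before the start in OCLN and 88 bases before it in TJP1, and CLDN3 has 1 that begins 36 bases after its start. The windows of CLDN1, CLDN4, CLDN7 and SPINT1 hold none. The table had windows for 7 of the 10 genes, not for EPCAM, F11R and MAL2. Of these, 3 of 7 held the hexamer and 5 of 7 an E-box, where 20.6% and 68.9% of 27305 promoters of the same length did.

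Levels are given as CPM after scaling by the trimmed mean of M-values (TMM), first for each of the 2 libraries of a group. Differences are log2 fold changes ± SE from edgeR's quasi-likelihood test, with p-values adjusted by Benjamini-Hochberg over the 21066 genes. The words rose and fell are kept for genes with an adjusted p under 0.05. RNA from whole cultures cannot tell fewer cells that express a gene from less RNA per cell.

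The control libraries show how far the lines differ before miR-375 is raised. LNCaP control cells carried about 14 to 16 times the occludin, EPCAM and CLDN7 RNA of PC3 control cells, and PC3 control cells carried more CLDN4, CLDN1, MAL2 and TJP1 RNA. All 10 genes differed, 6 higher in LNCaP and 4 lower, where 41.2% of all tested genes were higher, 39.2% lower and 80.4% changed in either direction, so a difference was near the background rate. The median log2 fold change was 0.49 over the 10 genes and 0.07 over all tested genes.

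CLDN7, a claudin of many simple epithelia that binds EPCAM, had 224 and 220.2 CPM in LNCaP controls, against 15.6 and 11.4 CPM in PC3 controls, a log2 fold change of 4.04 ± 0.07 (16.4-fold, adjusted p = 9.05e-26). EPCAM, an adhesion molecule of simple epithelia, had 135 and 147 CPM in LNCaP controls, against 9.39 and 8.46 CPM in PC3 controls (15.8-fold, adjusted p = 7.42e-35). OCLN, which encodes occludin, had 64.4 and 69.9 CPM in LNCaP controls, against 4.69 and 4.62 CPM in PC3 controls (14.4-fold, adjusted p = 4.87e-30). None of these groups overlapped, and the PC3 libraries were low for all of them. SPINT1 was 3.48-fold, CLDN3 1.59-fold and F11R 1.24-fold higher in LNCaP controls. In the other direction CLDN1 was 4.79-fold, CLDN4 2.60-fold, MAL2 2.46-fold and TJP1 1.31-fold lower in LNCaP controls.

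Levels can be ordered between genes only per length of annotated exon, as CPM per kilobase. In PC3 with miR-375 MAL2 came first (77.4 CPM per kilobase), before CLDN4 (73.3), CLDN3 (58.2), SPINT1 (35.8), TJP1 (10.8), EPCAM (9.42), CLDN7 (7.66), F11R (7.39), CLDN1 (2.59) and OCLN (1.64), and only CLDN7 and F11R overlapped. In PC3 controls CLDN4 came first (181.6 CPM per kilobase), before MAL2 (166), CLDN3 (52.4), SPINT1 (16.1), TJP1 (14.9), F11R (9.01), CLDN7 (5.42), EPCAM (3.54), CLDN1 (1.08) and OCLN (0.689), with no overlap between neighbours. In LNCaP with miR-375 the order began with CLDN7, CLDN4 and CLDN3, between 73.7 and 81.7 CPM per kilobase, and ended with CLDN1 at 0.0967. In LNCaP controls CLDN7 led, CLDN3 and CLDN4 followed, and the pairs EPCAM with SPINT1 and TJP1 with F11R overlapped. CLDN4 has 4702 bases of annotated exon, including long upstream transcripts, and 1831 in its principal transcript, so its place depends on the length used.

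**Figure D1:**
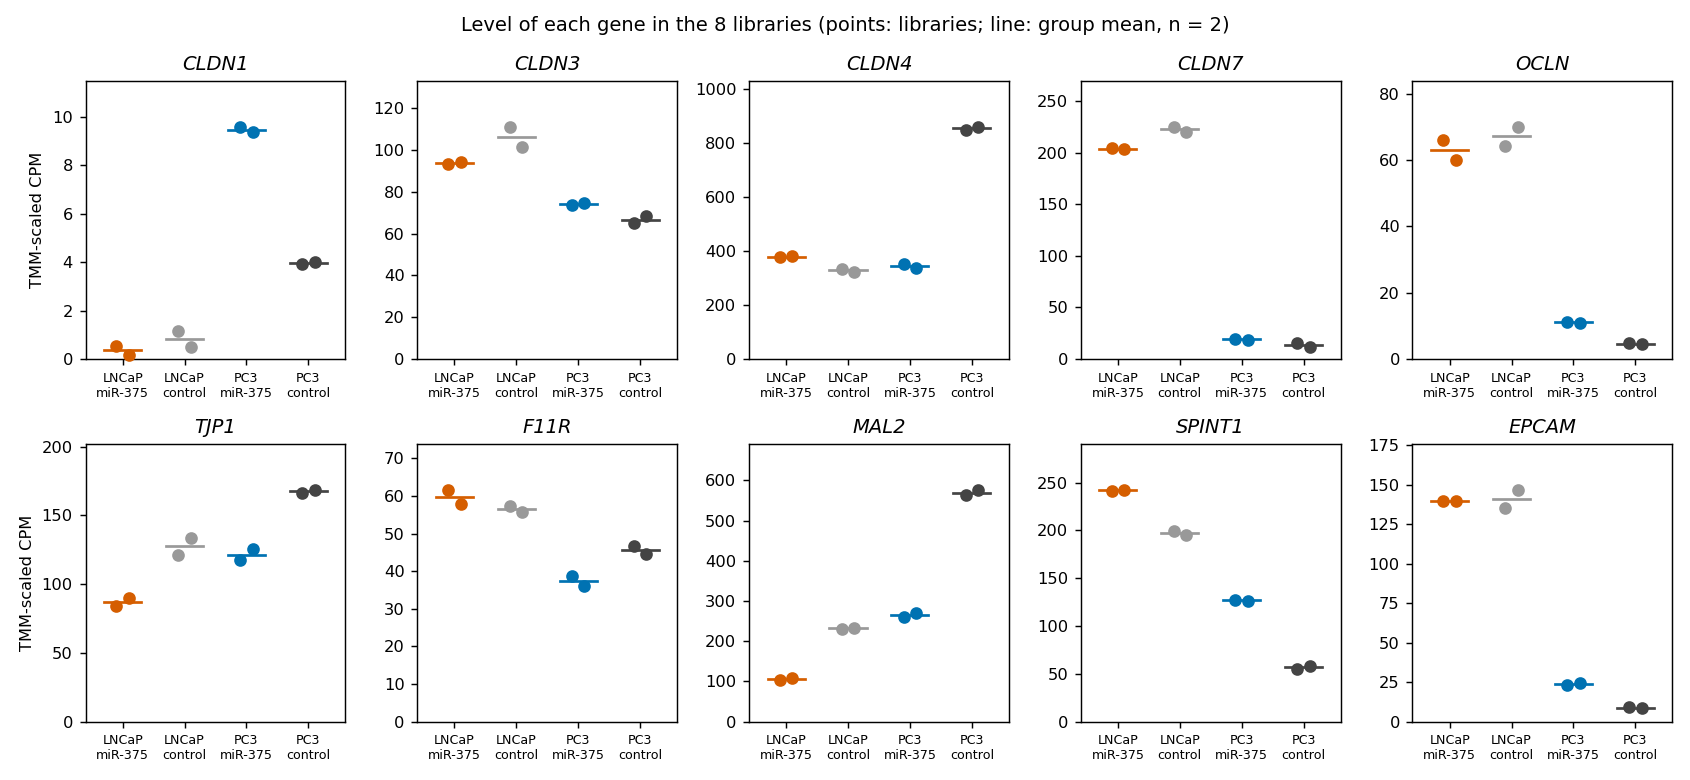
Level of each of the 10 genes in every library, in TMM-scaled CPM on a linear axis that starts at 0 and has its own range per gene, with points for libraries and a line at the mean of the 2 libraries of a group. OCLN, EPCAM and CLDN7 are high in LNCaP and low in PC3, while CLDN4 and MAL2 are highest in PC3 controls.

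In PC3, miR-375 went with a mixed shift of the set. RNA for occludin, CLDN1, EPCAM and SPINT1 was 2.23-fold to 2.66-fold higher in PC3 with miR-375, while CLDN4 was 2.48-fold and MAL2 2.15-fold lower. CLDN7 and CLDN3 rose less, and TJP1 and F11R fell less. Thus 6 genes rose and 4 fell, where 22.2% of all tested genes rose, 20.8% fell and 43.0% changed. The median log2 fold change was 0.32 over the 10 genes and 0.02 over all.

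Among the claudins, CLDN4, a barrier-forming claudin and a receptor for Clostridium perfringens enterotoxin, had 352 and 338 CPM in PC3 with miR-375, against 849.9 and 858 CPM in PC3 controls. Both miR-375 libraries were far below both controls, and the log2 fold change was −1.31 ± 0.03 (adjusted p = 2.18e-27). CLDN1, a claudin needed for the epidermal barrier, had 9.58 and 9.40 CPM in PC3 with miR-375, against 3.94 and 4.0 CPM in PC3 controls (log2 fold change 1.26 ± 0.23, adjusted p = 1.81e-05). These values came from 402 and 396 counts with miR-375 and from 158 and 154 counts in the controls, so the groups stood well apart on modest counts.

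CLDN7 had 19.6 and 18.6 CPM in PC3 with miR-375, against 15.6 and 11.4 CPM in PC3 controls, a rise of 0.49 ± 0.09 on the log2 scale (adjusted p = 4.00e-05). The groups did not overlap, but the controls differed from each other, and the log2 fold change was 0.75 without control replicate 1 and 0.28 without control replicate 2. CLDN3, another receptor for the same enterotoxin, had 73.8 and 74.5 CPM in PC3 with miR-375, against 65.0 and 68.6 CPM in PC3 controls (log2 fold change 0.15 ± 0.05, adjusted p = 0.0172). That small rise did not hold under DESeq2 (adjusted p = 0.0804), without the filter on low counts (0.0917), without PC3 control replicate 1 (0.181), without PC3 miR-375 replicate 1 (0.0531) or 2 (0.0892), or without LNCaP miR-375 replicate 1 (0.0566).

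OCLN had 11.2 and 11 CPM in PC3 with miR-375, against 4.69 and 4.62 CPM in PC3 controls, a log2 fold change of 1.25 ± 0.11 (adjusted p = 1.68e-12). The groups did not overlap, and all 4 PC3 values were below the lowest LNCaP library, which had 60.1 CPM. The OCLN pseudogene OCLNP1 took 231 counts over all 8 libraries. TJP1, which encodes the scaffold that links claudins and occludin to actin, had 118 and 125 CPM in PC3 with miR-375, against 167 and 168 CPM in PC3 controls (log2 fold change −0.46 ± 0.05, adjusted p = 1.60e-10). F11R, whose JAM-A protein helps to recruit polarity proteins, had 38.7 and 36.2 CPM in PC3 with miR-375, against 46.7 and 44.5 CPM in PC3 controls (log2 fold change −0.29 ± 0.06, adjusted p = 3.05e-04). Neither gene's groups overlapped. F11R shares 1853 of its 5066 exon bases with AL591806.3 on the same strand, so its level is uncertain where the authors' counting dropped shared reads.

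MAL2, a membrane protein of transcytosis to the apical surface, had 260.0 and 271 CPM in PC3 with miR-375, against 563 and 576 CPM in PC3 controls (log2 fold change −1.10 ± 0.04, adjusted p = 2.46e-24). SPINT1, whose product inhibits the proteases matriptase and hepsin, had 127 and 126 CPM in PC3 with miR-375, against 55.2 and 58.5 CPM in PC3 controls (log2 fold change 1.16 ± 0.04, adjusted p = 2.09e-22). EPCAM had 23.1 and 24.3 CPM in PC3 with miR-375, against 9.39 and 8.46 CPM in PC3 controls (log2 fold change 1.41 ± 0.08, adjusted p = 6.36e-18). The 3 genes separated the groups fully, MAL2 downward and the others upward. Other cell type markers moved in the same comparison: 7 fibroblast markers, all detected, summed to 417 and 398 CPM with miR-375, against 173 and 185 CPM in controls, most of it COL1A1, and 5 endothelial markers summed to 206 and 206 CPM, against 368 and 369 CPM in controls, most of it KDR. Of the 7 fibroblast markers 4 were higher (COL1A1, DCN, LUM and PDGFRB), 1 was lower (PDGFRA) and 2 were not called. LUM averaged 2.64 CPM with miR-375 and 0.922 CPM in controls, PDGFRB 2.28 and 0.739 CPM, and DCN 0.404 CPM, against 0 counts in both controls. Of 4 tested endothelial markers 2 were lower (KDR and PECAM1) and 2 were not called, and the untested CDH5 averaged 0.155 CPM with miR-375 and 0.128 CPM in controls. The 5 epithelial markers summed to 899.8 and 880.1 CPM with miR-375, against 1550 and 1568 CPM in controls, most of it the keratin KRT19. Of these markers 2 were higher (CDH1 and EPCAM) and 3 were lower (the keratins KRT8, KRT18 and KRT19), so the sum follows the keratins. EPCAM also belongs to the set of 10 genes. The part of these markers in the results on the 10 genes was not tested.

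In LNCaP the fitted fold changes of the 10 genes were smaller in size than in PC3, except for MAL2, TJP1 and CLDN3. MAL2 was 2.19-fold and TJP1 1.46-fold lower in LNCaP with miR-375, SPINT1 was 1.22-fold and CLDN4 1.16-fold higher, and occludin, EPCAM, CLDN7 and F11R did not pass the test. In all 2 genes rose and 4 fell, where 13.9% of all tested genes rose, 18.7% fell and 32.6% changed. The median log2 fold change was −0.11 over the 10 genes and 0.00 over all. Scaling by total counts in place of TMM moved the median of all genes to 0.12 and gave 4719 genes higher and 2613 lower, against 2927 and 3933 with TMM, and the 2 scalings give opposite majorities over all genes. SPINT1 and CLDN4 rose and MAL2 and TJP1 fell with either.

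MAL2 had 104 and 108 CPM in LNCaP with miR-375, against 231 and 233 CPM in LNCaP controls (log2 fold change −1.13 ± 0.04, adjusted p = 3.60e-23). TJP1 had 84.4 and 90.2 CPM in LNCaP with miR-375, against 121 and 134 CPM in LNCaP controls (log2 fold change −0.55 ± 0.05, adjusted p = 1.55e-11). Both stood clear of their controls, and these were the 2 genes of the set that fell in each line. SPINT1 had 242 CPM in both libraries of LNCaP with miR-375, against 199.9 and 195 CPM in LNCaP controls (log2 fold change 0.29 ± 0.04, adjusted p = 1.89e-07).

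CLDN4 had 379.6 and 379.7 CPM in LNCaP with miR-375, against 333 and 323 CPM in LNCaP controls, a log2 fold change of 0.21 ± 0.03 (adjusted p = 4.14e-06). The groups did not overlap, and the value was 0.33 with total-count scaling. CLDN3 had 93.5 and 94.2 CPM in LNCaP with miR-375, against 111 and 101 CPM in LNCaP controls (log2 fold change −0.18 ± 0.05, adjusted p = 0.00581). The call on CLDN3 ended with total-count scaling (log2 fold change −0.06, adjusted p = 0.450), without the filter (−0.11, adjusted p = 0.158), under DESeq2 (adjusted p = 0.0752), without control replicate 1 (−0.06, adjusted p = 0.568) and without miR-375 replicate 1 (adjusted p = 0.160) or 2 (adjusted p = 0.123). CLDN1 was nearly silent, with 0.542 and 0.166 CPM in LNCaP with miR-375, against 1.15 and 0.516 CPM in LNCaP controls, from 20 and 6 counts against 38 and 18 counts. Its groups overlapped, and the log2 fold change of −1.21 ± 0.44 (adjusted p = 0.0315) came to −0.48 without control replicate 1 (adjusted p = 0.627), −0.56 without miR-375 replicate 2 (adjusted p = 0.464) and −2.25 without miR-375 replicate 1. The call on CLDN1 also ended with total-count scaling (adjusted p = 0.0534), limma-voom (0.110), LNCaP fitted alone (0.0610) and halved counts (0.0614).

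The remaining genes stayed near their controls. CLDN7 had 204 and 203 CPM in LNCaP with miR-375, against 224 and 220.2 CPM in LNCaP controls (log2 fold change −0.13 ± 0.06, adjusted p = 0.0967), groups that did not overlap. OCLN had 66.1 and 60.1 CPM in LNCaP with miR-375, against 64.4 and 69.9 CPM in LNCaP controls (log2 fold change −0.09 ± 0.07, adjusted p = 0.367), and EPCAM had 139.7 and 139.6 CPM, against 135 and 147 CPM in LNCaP controls (−0.01 ± 0.05, adjusted p = 0.895). Both overlapped their controls. F11R had 61.6 and 57.9 CPM in LNCaP with miR-375, against 57.4 and 55.9 CPM in LNCaP controls (log2 fold change 0.08 ± 0.06, adjusted p = 0.383). CLDN7 passed under limma-voom (adjusted p = 0.0133), with LNCaP fitted alone (0.0145) and without PC3 control replicate 1 (0.0276) or 2 (0.0279), and F11R passed with total-count scaling (log2 fold change 0.20, adjusted p = 0.0102).

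**Figure D2:**
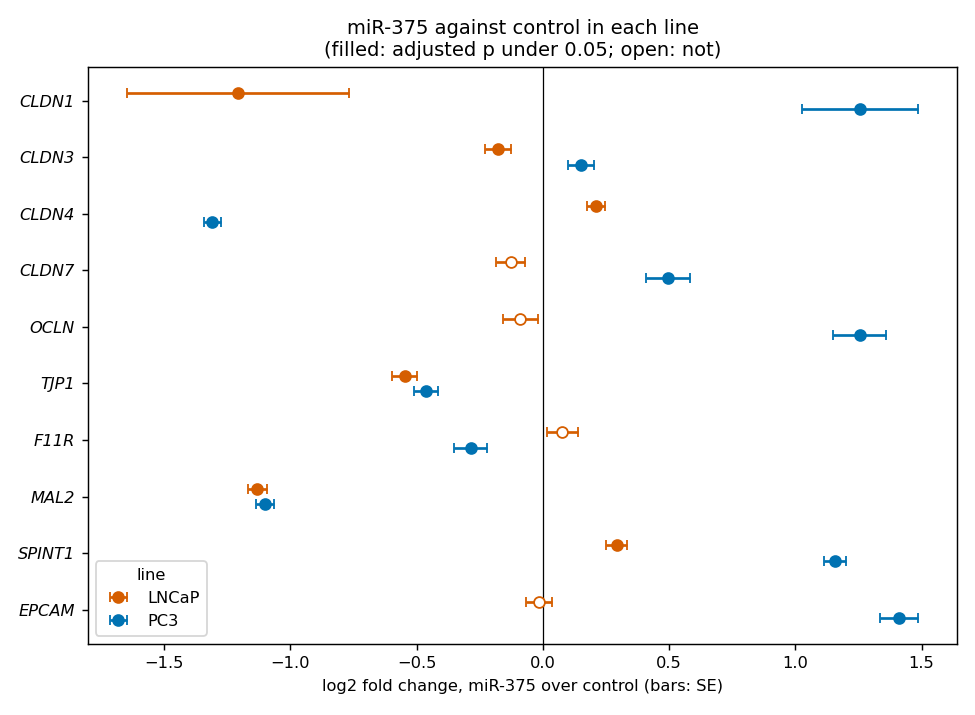
Log2 fold change of miR-375 over control for each gene in LNCaP and PC3, with SE bars, where filled points passed the test. MAL2 and TJP1 lie below 0 by similar amounts in both lines, while OCLN and EPCAM lie near 0 in LNCaP and above 1 in PC3.

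The effect of miR-375 was compared between the lines by the interaction term, the LNCaP effect minus the PC3 effect. It passed for 8 of the 10 genes, 2 higher and 6 lower, where 10.9% of all tested genes were higher, 15.6% lower and 26.5% changed. The median was −0.48 over the 10 genes and −0.04 over all. CLDN4 had the largest difference upward at 1.52 ± 0.05 (adjusted p = 1.04e-23), and F11R followed at 0.36 ± 0.09 (adjusted p = 0.00173). Downward, CLDN1 differed by −2.46 ± 0.49 (adjusted p = 1.62e-04), EPCAM by −1.42 ± 0.09 (adjusted p = 7.34e-15), OCLN by −1.34 ± 0.13 (adjusted p = 1.25e-10) and SPINT1 by −0.87 ± 0.06 (adjusted p = 3.13e-14).

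CLDN4 was the 1 gene of the set that rose in LNCaP and fell in PC3. CLDN7 differed by −0.62 ± 0.10 (−0.40 without PC3 control replicate 2) and CLDN3 by −0.33 ± 0.07, which ended without LNCaP control replicate 1 (−0.18, adjusted p = 0.0916). For MAL2 the difference was −0.03 ± 0.05 (adjusted p = 0.765) and for TJP1 −0.08 ± 0.07 (adjusted p = 0.412), so no difference between the lines was detected for either, which does not show that the effects were equal. The comparison of control lines and the PC3 comparison share the PC3 controls, so noise in those controls moves both values in the same direction. OCLN, EPCAM and CLDN7, with control log2 fold changes of 3.85, 3.98 and 4.04 of LNCaP over PC3, had 1.25, 1.41 and 0.49 for miR-375 over control in PC3. CLDN4 and MAL2, at −1.38 and −1.30 between the controls, had −1.31 and −1.10 in PC3. SPINT1, CLDN3 and TJP1, at 1.80, 0.67 and −0.39 between the controls, had 1.16, 0.15 and −0.46 in PC3. With opposite signs, CLDN1, at −2.26 between the controls, had 1.26 in PC3, and F11R, at 0.31, had −0.29.

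The makeup of the 4 claudins was described as the share of each in their summed CPM per kilobase. In PC3 with miR-375 CLDN4 made up 51.7% ± 0.741 and CLDN3 41.1% ± 0.871, against 75.5% ± 0.138 and 21.8% ± 0.656 in PC3 controls (SD, n = 2). CLDN7 made up 5.40% ± 0.132 in PC3 with miR-375 and 2.26% ± 0.518 in controls, and CLDN1 made up 1.83% ± 0.00191 and 0.451% ± 0.000425. The share of CLDN3 stood higher in both miR-375 libraries, while its own CPM was 1.11-fold that of the controls. In LNCaP with miR-375 CLDN4 made up 34.2% ± 0.0131, against 28.8% ± 0.343 in LNCaP controls, CLDN3 31.2% against 34.3% and CLDN7 34.6% against 36.8%. With the length of the principal transcript, chosen as an alternative after the data were seen, CLDN4 made up 72.0% in PC3 with miR-375 and 88.2% in PC3 controls, and 50.2% in LNCaP with miR-375 and 44.0% in LNCaP controls. With that length CLDN3 made up 22.3% in PC3 with miR-375 and 9.91% in PC3 controls, and 17.8% in LNCaP with miR-375 and 20.5% in LNCaP controls. The shares of CLDN3 thus moved by over 1.5 times with the choice of length, while the direction within each line was kept.

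**Figure D3:**
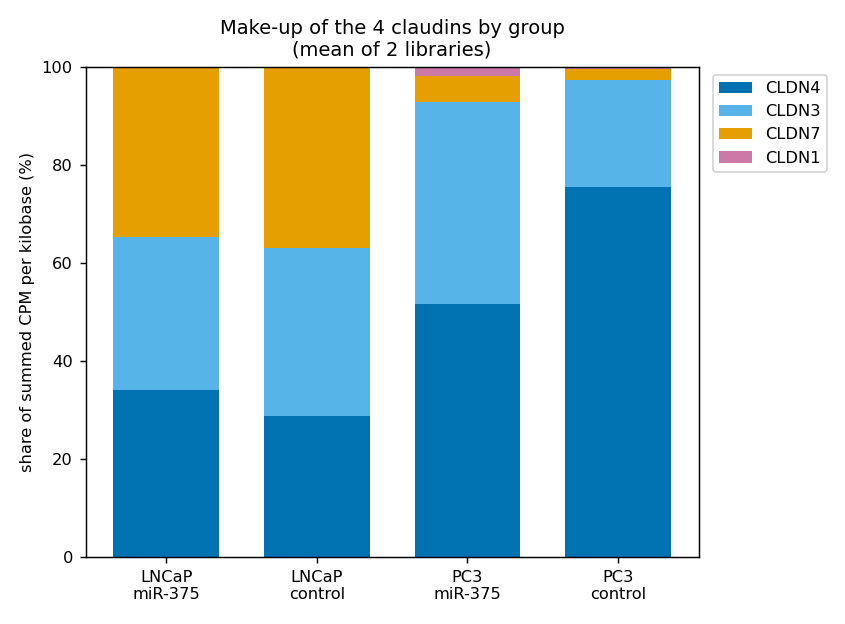
Share of CLDN1, CLDN3, CLDN4 and CLDN7 in their summed CPM per kilobase of annotated exon, in percent, as stacked bars of the mean of 2 libraries per group. CLDN4 holds about 52% in PC3 with miR-375 and about 76% in PC3 controls, and the LNCaP libraries are divided among CLDN3, CLDN4 and CLDN7.

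Other genes of the same structures were counted from lists of related proteins. Of 8 tested other claudins, none rose and 3 fell in PC3, where CLDN8 had 0 counts, and 2 rose and 2 fell in LNCaP. The LNCaP calls on CLDN11 and CLDN5 rest on low counts. CLDN11 had 19 and 10 counts in LNCaP with miR-375, against 3 and 2 in LNCaP controls. CLDN5 had 4 and 5 counts, against 36 and 25. CLDN11, a claudin of myelin and of the Sertoli cell barrier, had 28.8 and 28.4 CPM in PC3 with miR-375, against 51.2 and 52.8 CPM in PC3 controls (log2 fold change −0.86 ± 0.09, adjusted p = 2.56e-10). CLDN14, a claudin of the inner ear, had 4.76 and 4.13 CPM in PC3 with miR-375, against 9.81 and 11.6 CPM in PC3 controls (−1.26 ± 0.21, adjusted p = 6.11e-06). CLDN12 fell by 0.31 on the log2 scale in PC3 and in LNCaP alike. CLDN8 had 22.5 and 18.1 CPM in LNCaP with miR-375, against 14.5 and 15.2 CPM in LNCaP controls (adjusted p = 0.0109), a rise that ended without control replicate 1 (0.0546) or miR-375 replicate 1 (0.226).

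The lists of related genes are read beside the shares over all tested genes, of which 22.2% rose and 20.8% fell in PC3 and 13.9% rose and 18.7% fell in LNCaP. Some listed genes, among them MARVELD3 and NECTIN4 in PC3 and HGF in LNCaP, had almost no counts there and could hardly be called. Among 10 other tight junction membrane proteins, 3 rose and 1 fell in PC3, and 1 rose and 1 fell in LNCaP. The PC3 calls on LSR, ILDR1 and IGSF5 rest on low counts. LSR had 96 and 64 counts in PC3 with miR-375, against 34 and 59 in PC3 controls. ILDR1 had 128 and 41, against 12 and 18, and IGSF5 had 8 and 6, against 23 and 20. MARVELD2, which encodes tricellulin, the relative of occludin at contacts between several cells, had 10.0 and 11.6 CPM in PC3 with miR-375, against 7.74 and 6.33 CPM in PC3 controls (log2 fold change 0.62 ± 0.11, adjusted p = 8.69e-06). In LNCaP tricellulin RNA stayed near its controls (0.02 ± 0.08, adjusted p = 0.879), while MARVELD3 rose (0.71 ± 0.17) and CXADR, a junctional receptor used by coxsackieviruses and adenoviruses, fell (−0.38 ± 0.09). Of 19 plaque and scaffold genes, 5 rose and 5 fell in PC3, and 6 rose and 3 fell in LNCaP. Cingulin (CGN), a partner of ZO-1, had 14.2 and 16.7 CPM in PC3 with miR-375, against 8.11 and 10.1 CPM in PC3 controls (log2 fold change 0.77 ± 0.10), and also rose in LNCaP (0.46 ± 0.07). MPP5, the PALS1 scaffold of the Crumbs complex, fell in PC3 (−0.63 ± 0.04) and in LNCaP (−0.44 ± 0.05), and ARHGEF18 fell in PC3 (−0.43 ± 0.06). In LNCaP the named risers were CGNL1 (0.67 ± 0.12), TJP3 (0.63 ± 0.16), which also rose in PC3 (2.23 ± 0.27), and AMOTL2 (0.51 ± 0.10). TJP3 was low in PC3, with 3.83 and 2.54 CPM with miR-375, against 0.399 and 0.960 CPM in PC3 controls.

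Of 14 polarity genes, 5 rose and 5 fell in PC3, and 5 rose and 3 fell in LNCaP. PARD6A, an adaptor of the Par complex, rose in PC3 (log2 fold change 0.78 ± 0.13) and in LNCaP (0.58 ± 0.12), as did LLGL2, a basolateral polarity gene (0.47 ± 0.07 in PC3 and 0.42 ± 0.06 in LNCaP). PARD6G rose in PC3 (0.62 ± 0.12) and in LNCaP (0.34 ± 0.13, adjusted p = 0.0418), but the LNCaP call ended with limma-voom (adjusted p = 0.0934) and without control replicate 2 (0.136) or miR-375 replicate 2 (0.127). PARD6B fell in LNCaP (−0.75 ± 0.15) and was not called in PC3 (−0.29 ± 0.15, adjusted p = 0.117). Of 11 tested apical membrane and sorting genes, 4 rose and 3 fell in PC3, and 2 rose and 2 fell in LNCaP. PODXL, an apical sialomucin, fell in PC3 (log2 fold change −0.52 ± 0.06) and in LNCaP (−0.66 ± 0.07), and TSPAN8 fell in PC3 (−0.54 ± 0.11). SLC9A3R1 (0.20 ± 0.04) and the apical syntaxin STX3 (0.19 ± 0.05) rose in LNCaP, and STX3 also rose in PC3 (0.33 ± 0.06).

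SPINT1 acts on membrane serine proteases, and of 12 genes of that system 4 rose and 3 fell in PC3, and 3 rose and none fell in LNCaP. TMPRSS4 and TMPRSS13 had 0 counts in every PC3 library and HPN at most 2, so they could hardly be called there. HGF rose in PC3 on low counts, 108 and 96 with miR-375 against 43 and 25 in PC3 controls. ST14, which encodes matriptase, had 1.29 and 1.85 CPM in PC3 with miR-375, against 0.300 and 0 CPM in PC3 controls (log2 fold change 3.33 ± 0.42, adjusted p = 4.97e-07), while LNCaP with miR-375 had 179.7 and 177 CPM, against 197 and 197 CPM in LNCaP controls (adjusted p = 0.0913). PRSS8, the prostasin activated by matriptase, rose in LNCaP (0.68 ± 0.07, adjusted p = 1.47e-09). It also rose in PC3, with 1.43 and 1.33 CPM with miR-375, against 0.574 and 0.311 CPM in PC3 controls (1.62 ± 0.27, adjusted p = 3.17e-06). SPINT2, the related inhibitor HAI-2, rose in LNCaP (0.18 ± 0.04) and in PC3 (0.16 ± 0.04), though the PC3 call ended without PC3 control replicate 1 (adjusted p = 0.0926). TMPRSS2 (−0.39 ± 0.06), MET (−0.28 ± 0.03) and MST1R (−0.26 ± 0.07) fell in PC3, and the MST1R call ended without PC3 control replicate 1 (adjusted p = 0.124). TMPRSS13 rose in LNCaP (0.51 ± 0.18, adjusted p = 0.0272), but not without control replicate 2 (0.210) or miR-375 replicate 1 (0.250).

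Of 14 adherens junction and desmosome genes, 5 rose and 2 fell in PC3, and 5 rose and 4 fell in LNCaP. CDH1, the E-cadherin gene, had 17.7 and 15.2 CPM in PC3 with miR-375, against 4.19 and 3.50 CPM in PC3 controls (log2 fold change 2.09 ± 0.09, adjusted p = 1.04e-20), and 434 and 422 CPM in LNCaP with miR-375, against 391 and 402 CPM in LNCaP controls (0.11 ± 0.04, adjusted p = 0.0350). DSP, a desmosomal plaque gene, rose in PC3 (0.36 ± 0.06), and NECTIN2 rose in PC3 (0.33 ± 0.05) and in LNCaP (0.48 ± 0.05). In LNCaP NECTIN4 rose (0.73 ± 0.15), NECTIN3 rose (0.60 ± 0.14, adjusted p = 0.0580 without miR-375 replicate 1) and the desmocollin DSC2 fell (−0.51 ± 0.06), while in PC3 DSC2 rose (0.21 ± 0.06). Of 10 epithelial transcription factors, 3 rose and 1 fell in PC3, and 2 rose and 2 fell in LNCaP. ELF5 had 0 counts in every PC3 library, OVOL1 at most 1, OVOL2 at most 2 and GRHL2 at most 10. These genes could hardly be called in PC3. EHF, an ETS factor, had 41.1 and 42.8 CPM in PC3 with miR-375, against 16.2 and 15.9 CPM in PC3 controls (1.39 ± 0.07, adjusted p = 2.85e-17), and fell in LNCaP (−0.37 ± 0.05). ELF3 rose in PC3 (0.63 ± 0.07) and LNCaP (0.66 ± 0.07), and KLF4 fell in LNCaP (−0.74 ± 0.11) and PC3 (−0.33 ± 0.09). TFCP2L1 rose in PC3 (1.16 ± 0.25) and, from trace levels of 0.713 CPM with miR-375 and 0.208 CPM in controls, in LNCaP (1.77 ± 0.52, adjusted p = 0.00654), but the LNCaP call ended with limma-voom (adjusted p = 0.0582) and without control replicate 2 (0.120). GRHL2, a regulator of epithelial junction genes, did not pass in PC3 (0.226 ± 0.0174 CPM with miR-375 and 0.102 ± 0.00281 CPM in controls, adjusted p = 0.0995).

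**Figure D4:**
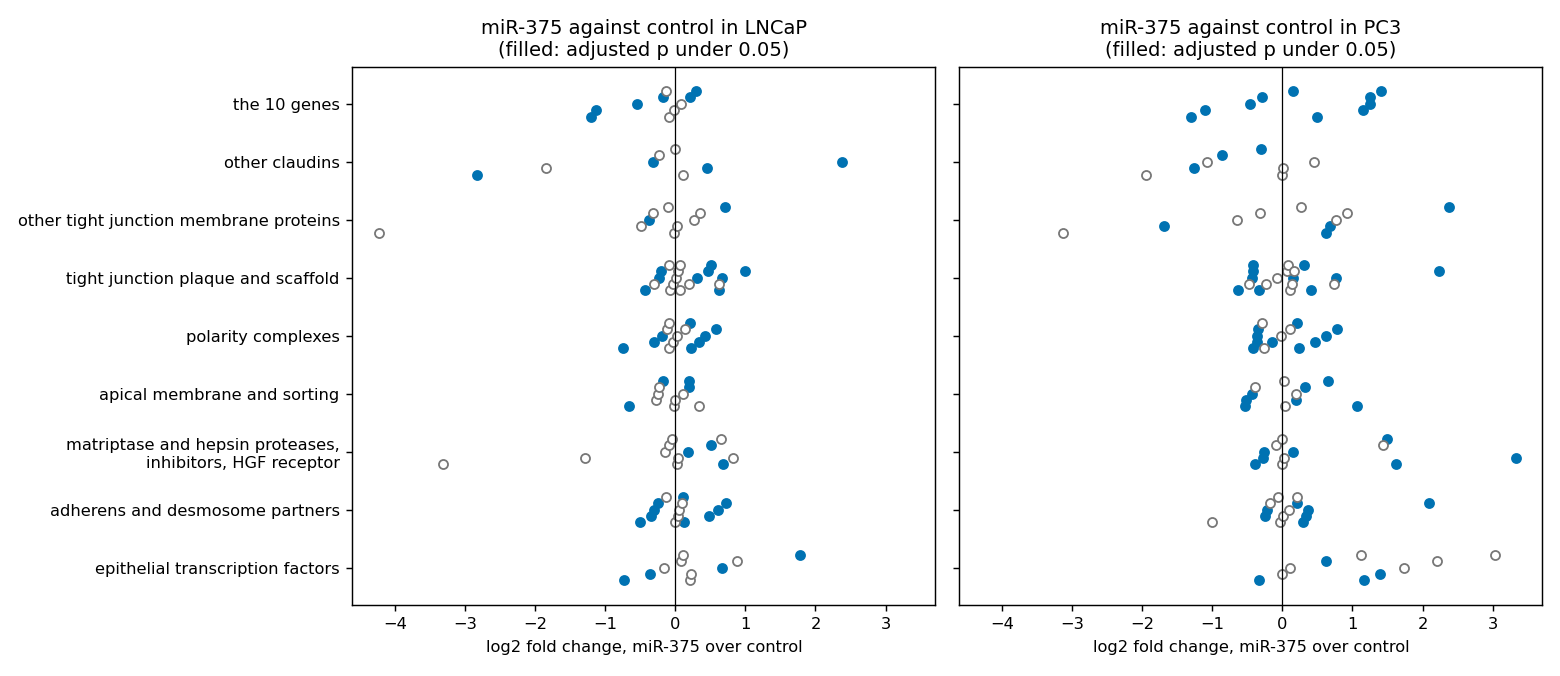
Log2 fold change of miR-375 over control for each tested gene of the set of 10 and of each list of related genes, in LNCaP and in PC3, where filled points passed the test and the vertical offset within a list only separates points. Filled points lie on both sides of 0 in each list except the other claudins in PC3 and the protease list in LNCaP.

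Genes whose profile over the 8 libraries was most like each member were found by the root mean square distance of centred log2(CPM + 1) values among 11803 candidates. With a line difference and 2 libraries a group shared by all points, this is a description. The nearest were RUNX2 for CLDN1 (distance 0.168), EMD for CLDN3 (0.0379), ENPP1 for CLDN4 (0.157), SNHG3 for CLDN7 (0.105) and IQANK1 for OCLN (0.0930). PPP3R1 was nearest to TJP1 (0.0366), TMEM14B to F11R (0.0402), CENPF to MAL2 (0.0547), DIRAS1 to SPINT1 (0.0549) and GATA2 to EPCAM (0.0740). The second nearest were TNFRSF18 for CLDN1 (0.186), TRMT10B for CLDN3 (0.0388), MLPH for CLDN4 (0.186), MAOA for CLDN7 (0.107), LRP3 for OCLN (0.117), ZBTB11 for TJP1 (0.0384), SARS1 for F11R (0.0518), TONSL for MAL2 (0.0670), B4GALT1 for SPINT1 (0.0771) and EHF for EPCAM (0.174).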

How the data were processed

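The authors deposited raw gene counts, whole numbers without normalization, in 1 table of 8 libraries. The submitters' processing notes name the hg38 genome and fastp, STAR 2.7.1a, featureCounts and DESeq2. The sources used here give neither the role of each tool nor the annotation and strand option used in counting, so overlapping and antisense genes are uncertain. Per the labels' protocols, libraries were poly(A)-selected and dUTP-marked. Between 68.1% and 70.3% of counts from 1 to 20 per library were even, and no source says if reads or pairs were counted. Of 60625 gene lines, 3 broken ones (279 counts) were left out and 60622 used.

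Groups and replicate numbers came from the sample titles. Genes passing filterByExpr were fitted jointly over the 4 groups, leaving 4 residual degrees of freedom. The fit used edgeR 4.0.16 in R 4.3.3 (glmQLFit with robust estimation and glmQLFTest, TMM), with Benjamini-Hochberg adjustment and a threshold of 0.05. It was also run on simulated counts that held no difference between the lines, and the outcome is not reported here. Contrasts were miR-375 against control in each line, their difference, and LNCaP against PC3 controls. Alternatives used other scalings, no filter, DESeq2 1.42.0, limma-voom 3.58.1, each line alone, the replicate number as a block, halved counts and each library left out. Replicates differed by more than sampling noise (chi-square over degrees of freedom of 3.52 to 3.74), so none was treated as a duplicate. The upper limit behind a count of 0 was set at 3 counts, which covers counting error only. Exon lengths and UTRs came from GENCODE v29 (GRCh38), with 1 principal transcript per gene for the UTR search.

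The 10 genes and the lists of related genes were chosen with earlier results of these data known. The text names all 10 and, per list and miR-375 comparison, up to 3 called genes with the largest absolute log2 fold change among those with a mean of at least 5 CPM in either group, plus CDH1, ST14, SPINT2, GRHL2 and MARVELD2 for their ties to the 10. Some genes that the rule names are not reported here. PRSS8 met the rule in LNCaP.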

Additional observations from a re-analysis of the deposited data

Results flagged for a closer look

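The effect of miR-375 differed between the lines for 8 of the 10 genes by the test of the difference itself (edgeR's interaction term, LNCaP effect minus PC3 effect, log2). Of all tested genes, 26.5% were called in that comparison, 10.9% with a higher and 15.6% with a lower value. The 10 genes were chosen with earlier results of these data known, so their count is a description. The difference was 1.52 for CLDN4 and 0.36 for F11R. It was −2.46 for CLDN1, −1.42 for EPCAM, −1.34 for OCLN, −0.87 for SPINT1, −0.62 for CLDN7 and −0.33 for CLDN3. CLDN1 rests on 6 to 38 counts per library in LNCaP.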

How the results depend on the processing

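Over 40 fold changes of the 10 genes in 4 comparisons, 620 alternative values were computed. Of these, 596 kept their side of the threshold, 19 lost it and 5 gained it, no called value changed sign, and 34 fold changes kept their side throughout. Uncalled values near 0 changed sign 24 times, for EPCAM and OCLN in LNCaP (up to 0.11 and 0.03) and for the MAL2 and TJP1 differences between lines (up to 0.07 each). The 6 others were CLDN1, CLDN3, CLDN7 and F11R in LNCaP, CLDN3 in PC3 and the CLDN3 difference between lines, with values beside those results. With total-count scaling 2 of the 10 genes were lower in LNCaP, not 4, and over all genes 4719 were higher and 2613 lower; total-count scaling moved the median of all genes by 0.12. Leaving out each library in turn changed how many of the 10 genes, and of all genes, were called lower in LNCaP. Over these runs the log2 fold change of CLDN1 in LNCaP ran from −2.25 to −0.48.

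Same-numbered replicates did not deviate together (r = 0.0139 in LNCaP and 0.00352 in PC3 over 21066 genes), so the numbers were not taken as pairs. With the replicate block, 2 of the 10 genes rose and 4 fell in LNCaP, and 6 rose and 4 fell in PC3, and no call on the 40 fold changes changed. Over all genes the block gave 2796 higher and 3821 lower in LNCaP and 4505 higher and 4272 lower in PC3. Low counts limit CLDN1, CLDN5 and CLDN11 in LNCaP and ST14, PRSS8, TJP3, LSR, ILDR1, IGSF5 and HGF in PC3, among others.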

Other observations

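In both LNCaP groups the transcription factors GRHL2 and OVOL2 and the junction protein alpha-catenin (CTNNA1) were well expressed, while in PC3 GRHL2 and OVOL2 were near the limit of detection and CTNNA1 was low. GRHL2 averaged 149.7 ± 5.73 CPM in LNCaP with miR-375 and 142 ± 2.43 CPM in LNCaP controls, and 0.226 ± 0.0174 CPM in PC3 with miR-375 and 0.102 ± 0.00281 CPM in PC3 controls (SD, n = 2). CTNNA1, which links cadherins to actin, averaged 332 ± 3.85 CPM in LNCaP with miR-375 and 319 ± 2.03 CPM in LNCaP controls, and 2.58 ± 0.178 CPM in PC3 with miR-375 and 2.22 ± 0.317 CPM in PC3 controls. OVOL2 averaged 14.8 ± 1.79 CPM in LNCaP with miR-375 and 16.5 ± 2.25 CPM in LNCaP controls, and was listed at 0 and 0.0475 CPM in PC3 with miR-375 and at 0 CPM in both PC3 controls. These genes were picked after their values were seen.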
